A study of Rattus norvegicus with 24 samples.

Results

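The microglia marker genes are 35 genes that mark the resident macrophages of the brain. Members were taken by gene name from a list of genes known to be expressed by microglia. The list was chosen with earlier results of these data known, and for genes with several probe sets the brightest was used. Of the 35 genes, 33 could be followed among the 18137 genes of the arrays. Spi1 was found under its older symbol Sfpi1, Spp1 was not analysed here, and Fcgr2b was found only on a probe set whose label also names Fcgr2a, so it is described apart. The 33 genes comprised 10 homeostatic genes, typical of microglia in healthy tissue, 9 activation genes and 14 general myeloid genes.

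RNA from the cerebellum of Sprague-Dawley rats was measured on 24 Affymetrix arrays to model hepatic encephalopathy, a disturbance of brain function in liver disease or portal shunting. Portocaval anastomosis (PCA) joins the portal vein to the vena cava, and 19 arrays came from rats with PCA of 6 months, all Sprague-Dawley. In the PCA+NH3+LPS group (n = 4) the rats with PCA received 10 infusions of both ammonium acetate (NH3) and lipopolysaccharide (LPS), a component of bacterial outer membranes, at the doses given next. In the PCA+LPS group (n = 5) they received 10 LPS infusions at 5 mg/kg. In the PCA+NH3 group (n = 5) they received 10 infusions of ammonium acetate at 20 µl/min for 3 h. Infusions were given once every 2 weeks. The PCA group (n = 5) had PCA without these agents, and the Sham group (n = 5) had sham surgery. The labels give neither the ages of the rats nor vehicle infusions for PCA and Sham. Whether samples with different numbers came from different rats is not in the labels, so p-values measure only the spread between samples, with a precision set by the number of arrays.

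Microglia survey the brain with motile processes, steered in part by purine receptors such as P2ry12, and depend for survival on signalling through the receptor Csf1r. On injury or infection they lower homeostatic genes, raise genes for phagocytosis, lysosomes and the NADPH oxidase, and release cytokines. In hepatic encephalopathy, ammonia and systemic inflammation are both discussed as signals that reach microglia, and in the cerebellum of rodents these cells are sparser than in many other brain regions. Several of the genes are not exclusive to them: Ptprc, Itgam, Itgb2, Cd53, Cybb, Ncf1, Spi1 and Fcer1g are also expressed by blood leukocytes, and Axl, Mertk, Lpl and Sall1 also by other cells of the brain.

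Some arrays stood apart before any comparison. Values below are log2 expression from RMA, and a list mean averages its genes, each first centred on its 24-array mean. PCA+LPS arrays 2 and 5 had the highest means of 8 monocyte and neutrophil markers, 0.97 and 0.53, while the other 22 arrays lay between -0.17 and 0.03. Sham array 1 and PCA array 3 had the lowest means of 7 granule cell markers, -0.575 and -0.218, and Sham array 1 had the highest mean of 9 myelin markers at 1.06. PCA+NH3 arrays 1, 2 and 5 and PCA+NH3+LPS array 3 had the highest means of 12 choroid plexus markers, 1.235 to 3.06, against -0.865 to 0.426 in the other 20. Results that rest on these arrays are given with and without them. The defining homeostatic markers were measured in every array, with log2 levels of 7.9 to 9.4 for Cx3cr1, the fractalkine receptor, 7.7 to 8.9 for Csf1r, 6.4 to 7.7 for P2ry12 and 5.3 to 6.2 for Tmem119, a surface protein of microglia.

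**Figure D1:**
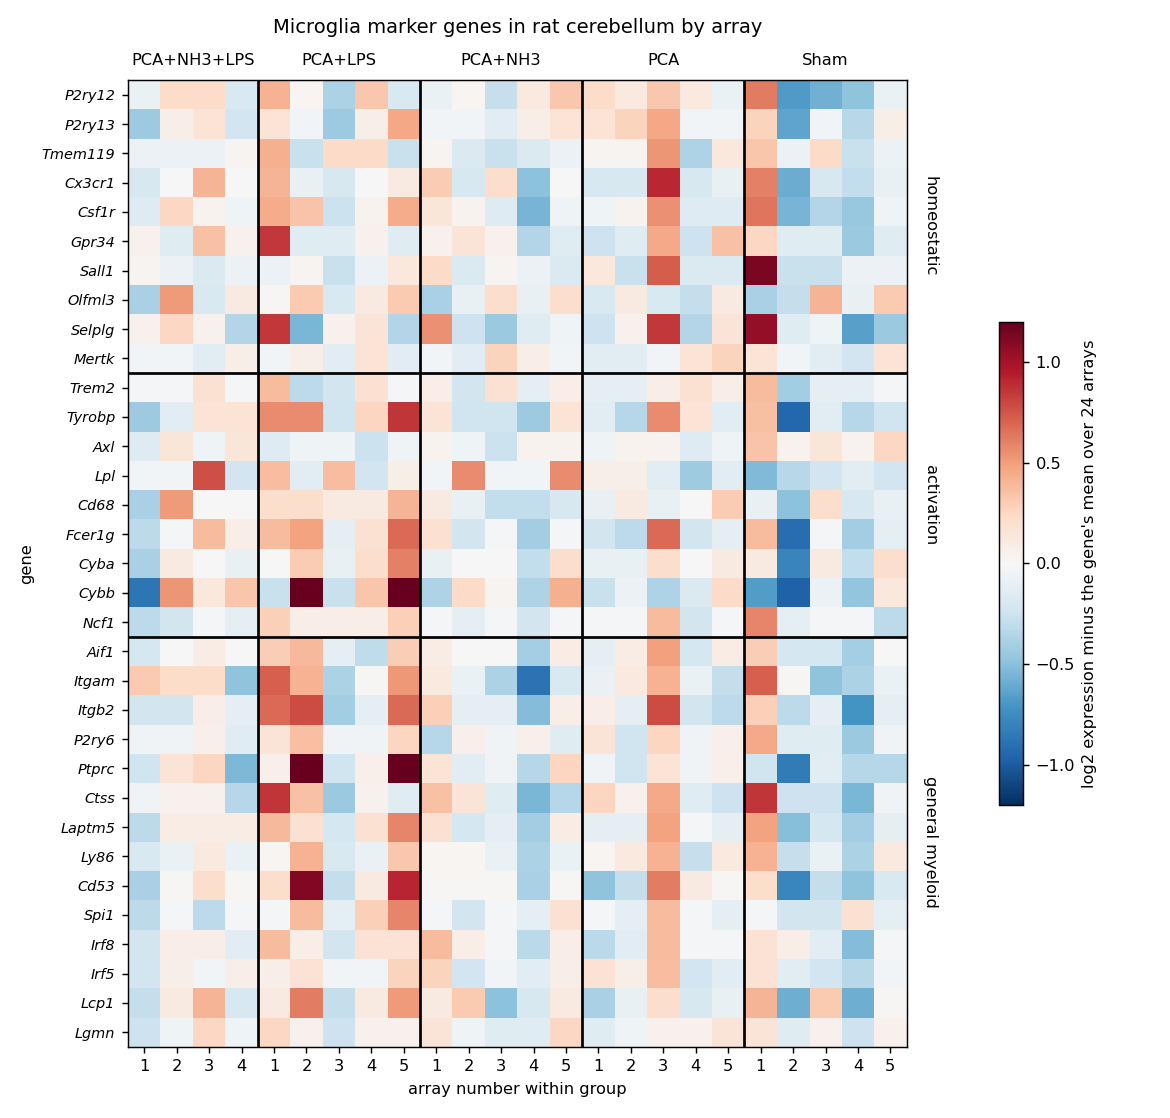
The log2 expression of each of the 33 microglia marker genes in each of the 24 arrays, minus the gene's mean over all arrays (colour, which saturates beyond 1.2 in either direction). Groups run from PCA+NH3+LPS on the left to Sham on the right, and genes are grouped as homeostatic, activation and general myeloid; whole columns are red or blue, such as PCA array 3 and Sham array 1 (high) and Sham arrays 2 and 4 (low).

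The mean level of the microglia markers overlapped between all groups. The mean over the 33 genes was -0.02 ± 0.15 in PCA+NH3+LPS (SD, n = 4), 0.16 ± 0.21 in PCA+LPS, -0.05 ± 0.14 in PCA+NH3, 0.02 ± 0.19 in PCA and -0.11 ± 0.27 in Sham (SD, n = 5 each). Sham was the widest group, with means between -0.384 in array 2 and 0.301 in array 1. Sham array 1 had the highest value of 11 of the 33 genes (ties counted), and Sham arrays 2 and 4 had the lowest of 15 and 12. PCA array 3 had the highest value of 9 genes, and its mean of 0.346 stood above those of the other PCA arrays, -0.111 to -0.002. In bulk tissue, fewer microglia and less RNA per microglial cell cannot be told apart.

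The genes not given array by array below had these log2 ranges over the 24 arrays, each on its own probe set and not comparable between genes. Among receptors they were 6.0 to 7.1 for P2ry13, 4.1 to 5.0 for P2ry6, 5.3 to 6.6 for Gpr34, 5.3 to 6.8 for Itgb2 and 7.0 to 8.7 for Selplg. Signalling genes were at 6.3 to 7.1 for Trem2, 7.5 to 9.1 for Fcer1g, 6.3 to 7.4 for Laptm5 and 5.2 to 6.0 for Ly86. The widest range of any marker was that of Cybb, 4.9 to 7.4, followed by Ptprc, 4.4 to 6.5. The regulators Irf8, Irf5 and Sall1 were at 5.1 to 6.0, 5.1 to 5.8 and 5.6 to 7.0. The remaining genes were at 5.7 to 6.6 for Aif1, 6.3 to 7.5 for Lcp1, 8.3 to 9.7 for Ctss, 8.2 to 8.7 for Lgmn, 5.6 to 7.0 for Cyba, 7.0 to 7.5 for Mertk and 6.8 to 7.7 for Olfml3.

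No microglia marker passed the adjusted threshold of 0.05 in any of the 11 contrasts or in the F-test over the 5 groups, all fitted with limma over 18137 genes. The background was low as well: genes called made up 0.0331% in PCA+LPS against Sham, 0.00551% in all PCA groups against Sham, 0.0165% each in the LPS factor and the NH3 factor, 0.011% in the F-test and 0% in the other 7 contrasts. The comparisons below therefore give sizes, standard errors (SE) and the counts at an unadjusted p under 0.05.

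The comparison of PCA+LPS with Sham held the most markers past the unadjusted threshold. There, 11 of the 33 genes were higher and 1 was lower at an unadjusted p under 0.05, against 7.47% of all genes in either direction, and none passed the limma adjusted threshold (smallest adjusted p = 0.349, Ptprc). The median log2 difference was 0.22 over the 33 genes and 0 over all genes, with 30 positive and 2 negative. The 11 genes were Ptprc, Cybb, Cd53, Tyrobp, Fcer1g, Itgb2, Laptm5, Lpl, Cd68, Cyba and Spi1, none of them homeostatic. The gene on the lower side was Axl. Border macrophage markers were positive as well, 7 of 7 with a median of 0.44; their list mean lay between -0.143 and 0.342 in PCA+LPS and between -0.358 and 0.142 in Sham, and their part in the result was not tested.

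Ptprc encodes the CD45 phosphatase carried by all nucleated blood cells and, at a lower level, by microglia. Its log2 level was 5.0, 5.4, 5.5 and 4.7 in PCA+NH3+LPS, 5.3, 6.5, 5.0, 5.3 and 6.5 in PCA+LPS, 5.4, 5.1, 5.2, 4.9 and 5.5 in PCA+NH3, 5.2, 5.0, 5.4, 5.2 and 5.3 in PCA, and 5.0, 4.4, 5.1, 4.9 and 4.9 in Sham. PCA+LPS arrays 2 and 5 lay a full unit above the highest of the others, and PCA+LPS overlapped every other group. The log2 difference of PCA+LPS from Sham was 0.86 (SE 0.23, limma adjusted p = 0.349), and from PCA it was 0.50 (SE 0.23, limma adjusted p = 0.988). A dimmer probe set of Ptprc had a log2 level of 3.98 ± 0.08 in PCA+LPS and 4.02 ± 0.11 in Sham (SD, n = 5 each), with a difference of -0.04 (SE 0.09), so the probe sets of Ptprc disagreed. With the mean of both, the difference of PCA+LPS from Sham was 0.41.

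Cybb encodes the catalytic subunit of the phagocyte NADPH oxidase, and with Cd53 was picked out after its values were seen. Log2 levels were 5.0, 6.4, 6.0 and 6.2 in PCA+NH3+LPS, 5.6, 7.4, 5.6, 6.2 and 7.2 in PCA+LPS, 5.5, 6.1, 5.9, 5.5 and 6.3 in PCA+NH3, 5.6, 5.8, 5.5, 5.7 and 6.1 in PCA, and 5.2, 4.9, 5.8, 5.4 and 6.0 in Sham. The same PCA+LPS arrays, 2 and 5, were the highest, and the other 3 of that group lay within the range of the remaining groups. The log2 difference from Sham was 0.94 (SE 0.31, limma adjusted p = 0.486), or 1.92-fold.

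Cd53 encodes a tetraspanin of leukocyte membranes. By array, the log2 level was 6.8, 7.2, 7.4 and 7.2 in PCA+NH3+LPS, 7.4, 8.3, 6.9, 7.3 and 8.1 in PCA+LPS, 7.2, 7.2, 7.2, 6.8 and 7.2 in PCA+NH3, 6.7, 6.9, 7.8, 7.3 and 7.2 in PCA, and 7.4, 6.4, 6.9, 6.7 and 7.0 in Sham. PCA+LPS arrays 2 and 5 again lay above the rest, and all groups overlapped. The difference in log2 level of PCA+LPS from Sham was 0.72 (SE 0.23, limma adjusted p = 0.475).

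Tyrobp encodes the signalling adaptor of Trem2 and other myeloid receptors. The arrays gave log2 levels of 7.8, 8.1, 8.4 and 8.4 in PCA+NH3+LPS, 8.8, 8.8, 8.0, 8.5 and 9.1 in PCA+LPS, 8.4, 8.0, 8.0, 7.8 and 8.4 in PCA+NH3, 8.1, 7.9, 8.8, 8.4 and 8.1 in PCA, and 8.6, 7.3, 8.1, 7.9 and 8.0 in Sham. Here PCA+LPS array 1 was as high as array 2, while PCA array 3 and Sham array 1 reached similar values. On the log2 scale the difference of PCA+LPS from Sham was 0.66 (SE 0.21, limma adjusted p = 0.486). Fcer1g, the other signalling chain that carries activating receptors of myeloid cells, differed by 0.54 (SE 0.21, limma adjusted p = 0.588). Trem2 itself, the lipid-sensing receptor of activated microglia, differed by 0.06 (SE 0.13).

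**Figure D2:**
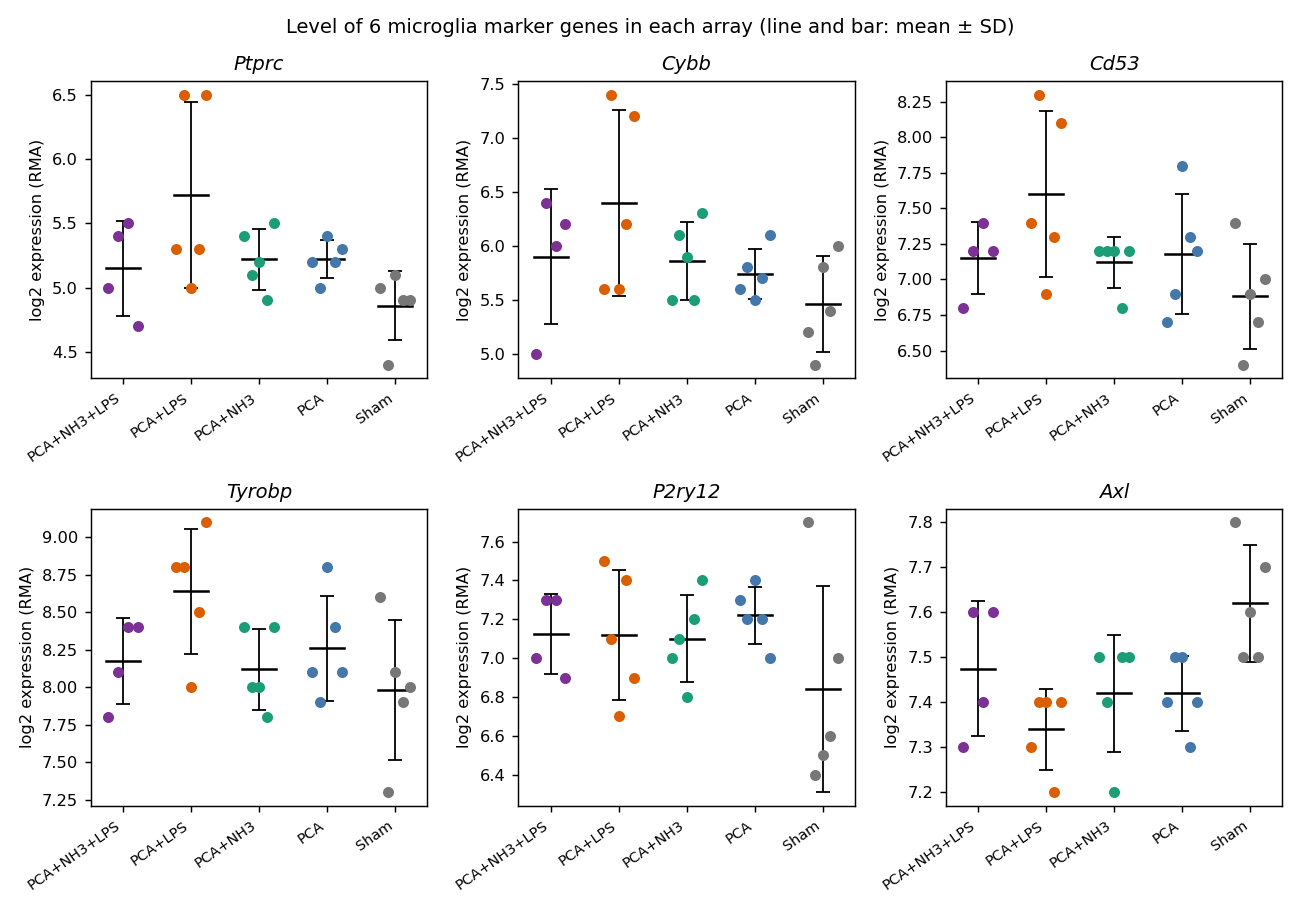
The log2 expression of Ptprc, Cybb, Cd53, Tyrobp, P2ry12 and Axl, 1 point per array, with the mean and SD of each group (PCA+NH3+LPS n = 4, the others n = 5). In Ptprc, Cybb and Cd53 the upper PCA+LPS points are arrays 2 and 5, with 6.5 and 6.5, 7.4 and 7.2, and 8.3 and 8.1; in Axl every PCA+LPS array lies below every Sham array.

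The other markers of this comparison followed their roles as follows. Among the integrin and adhesion receptors, the log2 difference of PCA+LPS from Sham was 0.52 (SE 0.23) for Itgb2 and 0.30 (SE 0.23) for its partner Itgam, which form the complement receptor of phagocytes. Selplg, the ligand of P-selectin, differed by 0.08 (SE 0.28). The other NADPH oxidase subunits differed by 0.34 (SE 0.16) for Cyba and 0.14 (SE 0.12) for Ncf1. The lysosomal genes were at 0.34 (SE 0.13) for Cd68, 0.18 (SE 0.23) for the protease gene Ctss and 0.06 (SE 0.105) for the protease gene Lgmn. All 3 lysosomal genes were positive, and of them Cd68 alone had an unadjusted p under 0.05. Transcription factors of the myeloid lineage were at 0.30 (SE 0.12) for Spi1, which encodes PU.1, and 0.20 for both Irf8 (SE 0.14) and Irf5 (SE 0.11). Membrane and cytoskeletal genes of myeloid cells were at 0.38 (SE 0.17) for Laptm5, 0.30 (SE 0.20) for the actin-bundling gene Lcp1, 0.22 (SE 0.15) for Aif1, which encodes the microglial stain IBA1, and 0.14 (SE 0.14) for Ly86. Purine and lipid receptors had a median of 0.21 over 4 genes, from 0.18 for the ADP receptor gene P2ry13 to 0.28 for P2ry12, with P2ry6 at 0.20 and Gpr34 at 0.22. All 4 of these receptors were positive, and none passed the unadjusted threshold. Csf1r was at 0.36 (SE 0.19) and Cx3cr1 at 0.16 (SE 0.21). The homeostatic genes Tmem119, Olfml3, Sall1 and Mertk were at 0.04, 0.12, -0.14 and 0.

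PCA+LPS arrays 2 and 5 were above all others for some of these markers. Of the 33 genes, 5 had both arrays above all other 22, namely Ptprc, Cybb, Cd53, Lcp1 and Cyba, a count taken after the values were seen. Over all genes that share was 0.987%, or 179 genes. The gaps of Lcp1 and Cyba were narrow. Lcp1 was at 7.5 and 7.4 against at most 7.3 in the other 22, and Cyba at 6.7 and 7.0 against at most 6.6. None of the 10 homeostatic genes was among the 5: P2ry12 measured 7.1 and 6.9 there, within the 6.4 to 7.7 of all arrays. The same arrays stood above all others in 4 of the 8 monocyte and neutrophil markers. S100a9, a calcium-binding protein of neutrophils and monocytes, had log2 levels of 7.0 and 6.0 against 4.1 to 4.6 in the other 22 arrays. Ccr2, the chemokine receptor of recruited monocytes, had 6.2 and 6.1 against 5.0 to 5.6. Plac8 and Cxcr2 were also above, and Mpo, Elane, Camp and S100a8 were not. None of 9 lymphocyte and none of 7 border macrophage markers stood above in both.

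Without these arrays, an alternative chosen after the values were seen, the count of markers higher in PCA+LPS than in Sham at an unadjusted p under 0.05 was 1 (Lpl) in place of 11, and the median was 0.19 in place of 0.22. The log2 difference from Sham was then 0.34 for Ptprc, 0.34 for Cybb, 0.32 for Cd53, 0.45 for Tyrobp and 0.37 for Fcer1g. With fewer PCA+LPS arrays the SE rose to 0.24 for both Tyrobp and Fcer1g. It fell to 0.17 for Ptprc, 0.27 for Cybb and 0.21 for Cd53. The count at the unadjusted threshold depends on the SE as well as on the size. Against PCA, Ptprc turned to -0.02 (SE 0.17) and Cybb to 0.06 (SE 0.27). By class, the median difference from Sham was 0.27 in place of 0.34 for the 9 activation genes and 0.14 in place of 0.26 for the 14 general myeloid genes. For the 10 homeostatic genes it was 0.21 in place of 0.14. Leaving out Sham array 2 alone left 4 markers higher at the unadjusted threshold, PCA+LPS array 5 alone left 5, and Sham array 1 alone raised the count to 18. Without both Sham array 1 and PCA array 3, also chosen after the values were seen, it was 19, with a median of 0.33. The part of blood leukocytes in these values was not tested.

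**Figure D3:**
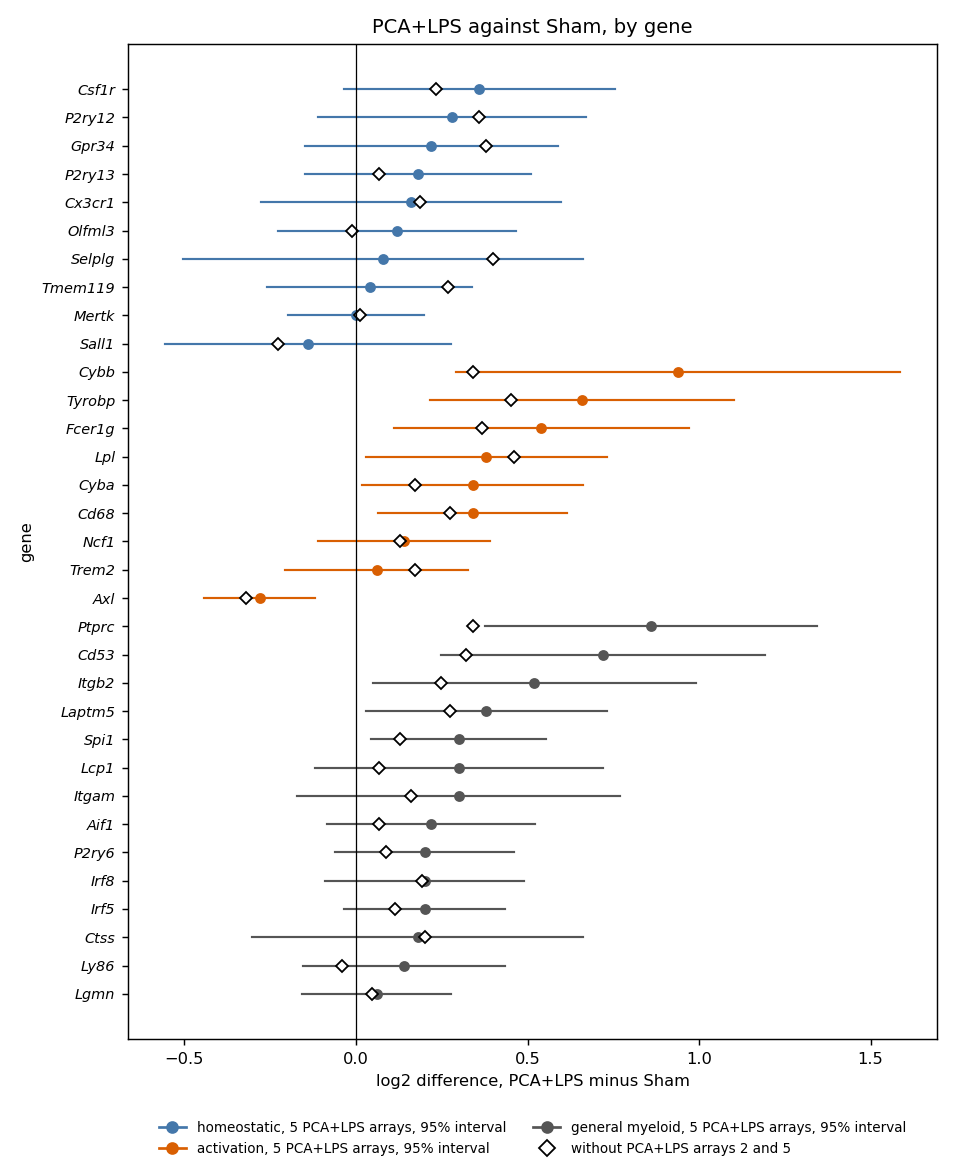
The log2 difference of PCA+LPS minus Sham for each of the 33 genes, ordered by size within class, with the 95% interval of the limma fit (filled points and lines, 5 arrays per group) and the same difference without PCA+LPS arrays 2 and 5 (open diamonds). The diamonds of Cybb, Ptprc and Cd53 lie at 0.34, 0.34 and 0.32, left of their filled points at 0.94, 0.86 and 0.72, while those of P2ry12, Gpr34, Selplg and Tmem119 lie right of them.

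Promoters are shown for Cd53, Cybb and Ptprc, which were highest in the same arrays, and for Ctss, whose window held every motif searched. Of the 33 genes, 20 had a promoter in the RefSeq table (rat build GRCr8), taken as the 250 bases before the start and searched on both strands. The PU.1-type motif GAGGAAG, which reads as CTTCCTC on the other strand, was in 7 of these 20 promoters, or 35%, against 10.2% of 33469 promoters, and its longer form GAGGAAGT, which contains it, in 2 (10%, against 2.04%). A motif of the interferon-response type, a repeat of the same short element with a gap, was in 3 (15%, against 3.41%). Ctss held both kinds, Cd53 the longer PU.1-type form and Cybb the interferon-response motif, while Ptprc held none of these letters in its window. Capitals mark the motifs, all of them lying as the other-strand letters, in the sequences, which are given 5′ to 3′ on the strand of the gene: Cd53 at chr2:197087897-197088146 (minus strand), Ctss at chr2:185775146-185775395 (plus), Cybb at chrX:16065066-16065315 (minus) and Ptprc at chr13:52259747-52259996 (minus). A match is a run of letters and not a measured binding site.
Cd53: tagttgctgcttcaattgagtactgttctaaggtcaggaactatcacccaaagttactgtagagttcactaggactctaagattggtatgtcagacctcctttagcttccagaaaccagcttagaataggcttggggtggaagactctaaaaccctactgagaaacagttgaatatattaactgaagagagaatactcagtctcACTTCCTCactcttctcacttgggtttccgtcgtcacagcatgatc
Ctss: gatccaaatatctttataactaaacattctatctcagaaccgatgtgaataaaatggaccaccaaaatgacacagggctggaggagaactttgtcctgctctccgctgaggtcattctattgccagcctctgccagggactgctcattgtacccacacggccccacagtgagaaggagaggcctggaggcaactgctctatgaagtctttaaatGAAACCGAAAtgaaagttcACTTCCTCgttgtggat
Cybb: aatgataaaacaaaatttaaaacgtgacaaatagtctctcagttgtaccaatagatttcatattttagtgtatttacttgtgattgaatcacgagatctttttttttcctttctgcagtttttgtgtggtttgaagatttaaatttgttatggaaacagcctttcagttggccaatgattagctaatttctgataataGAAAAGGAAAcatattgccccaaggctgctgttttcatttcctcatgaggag
Ptprc: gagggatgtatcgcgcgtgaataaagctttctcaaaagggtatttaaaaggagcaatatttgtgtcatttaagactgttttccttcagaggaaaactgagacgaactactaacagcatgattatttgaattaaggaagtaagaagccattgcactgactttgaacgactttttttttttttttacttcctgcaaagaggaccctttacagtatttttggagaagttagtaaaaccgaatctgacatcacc

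Axl, a receptor for the uptake of dying cells that is also known from activated mouse microglia, was the only marker lower than in Sham at an unadjusted p under 0.05 in PCA+LPS. Its log2 level was 7.3, 7.6, 7.4 and 7.6 in PCA+NH3+LPS, 7.3, 7.4, 7.4, 7.2 and 7.4 in PCA+LPS, 7.5, 7.4, 7.2, 7.5 and 7.5 in PCA+NH3, 7.4, 7.5, 7.5, 7.3 and 7.4 in PCA, and 7.8, 7.5, 7.6, 7.5 and 7.7 in Sham. All PCA+LPS arrays lay below all Sham arrays, the only marker lower without overlap in a comparison with Sham. Among all genes, 0.237% were lower without overlap and 0.193% higher in PCA+LPS against Sham. The log2 difference from Sham was -0.28 (SE 0.08, limma adjusted p = 0.361) in PCA+LPS and -0.20 (SE 0.08) in both PCA+NH3 and PCA. It was -0.145 (SE 0.08) in PCA+NH3+LPS and -0.21 (SE 0.06, limma adjusted p = 0.622) over all PCA groups. Mertk, the related receptor, was at 0.015 (SE 0.08) over all PCA groups. Without PCA+LPS arrays 2 and 5 the difference of Axl in PCA+LPS was -0.32 (SE 0.09), about as large as with them.

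The surgery without ammonium acetate or LPS was addressed by PCA against Sham. No marker passed the adjusted threshold (0 of all genes did, with 3.59% at an unadjusted p under 0.05), and the smallest limma adjusted p was 0.987. At the unadjusted threshold 0 markers were higher and 1, Axl, was lower. The median log2 difference was 0.16 over the 33 genes and 0 over all genes, with 28 positive and 4 negative. It was 0.055 without PCA array 3, 0.08 without Sham array 2, 0.105 without Sham array 4 and 0.23 without Sham array 1, where 6 markers were higher at the unadjusted threshold. No marker was separated without overlap, against 0.0882% of all genes higher and 0.0662% lower.

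P2ry12, the ADP receptor by which microglial processes find damaged cells, was the marker next to Axl by p in this comparison. Log2 levels were 7.0, 7.3, 7.3 and 6.9 in PCA+NH3+LPS, 7.5, 7.1, 6.7, 7.4 and 6.9 in PCA+LPS, 7.0, 7.1, 6.8, 7.2 and 7.4 in PCA+NH3, 7.3, 7.2, 7.4, 7.2 and 7.0 in PCA, and 7.7, 6.4, 6.5, 6.6 and 7.0 in Sham. Sham was wide, with its array 1 the highest of all 24 and its arrays 2, 3 and 4 the lowest. The difference in log2 level of PCA from Sham was 0.38 (SE 0.19), and 0.55 (SE 0.16, limma adjusted p = 0.98) without Sham array 1 and PCA array 3, an alternative chosen after the values were seen. On leaving out 1 array it lay between 0.27 and 0.595, the latter without Sham array 1. P2ry13 differed by 0.30 (SE 0.16), and by 0.175 without Sham array 2. Border macrophage markers were positive too, 7 of 7 with a median of 0.32; their list mean lay between -0.215 and 0.314 in PCA and between -0.358 and 0.142 in Sham, and their part in the result was not tested.

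Over all PCA groups against Sham, 4 markers were higher and 1 lower at an unadjusted p under 0.05, against 5.94% of all genes, and none passed the adjusted threshold. The median log2 difference was 0.13 over the 33 genes and -0.002 over all genes, with 29 positive and 4 negative, and it was 0.055 without Sham array 2, 0.08 without Sham array 4 and 0.235 without Sham array 1. The 4 genes were Lpl at 0.37 (SE 0.14), Ptprc at 0.47 (SE 0.19), Cd53 at 0.38 (SE 0.18) and Cybb at 0.515 (SE 0.25), with limma adjusted p of 0.764 or more. Without Sham array 2 the count of higher markers was 1, and without Sham array 1 it was 10. It was also 1 without the 4 arrays of high choroid plexus markers and 2 without PCA+LPS arrays 2 and 5. All 14 general myeloid genes were positive, with a median of 0.11.

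Lpl, the lipase that activated microglia use for lipid uptake, is also expressed by other brain cells. It had the smallest p of the markers in PCA+NH3 against Sham. By array, the log2 level was 6.6, 6.6, 7.4 and 6.4 in PCA+NH3+LPS, 7.0, 6.5, 7.0, 6.4 and 6.7 in PCA+LPS, 6.6, 7.2, 6.6, 6.6 and 7.2 in PCA+NH3, 6.7, 6.7, 6.5, 6.2 and 6.5 in PCA, and 6.1, 6.3, 6.4, 6.5 and 6.4 in Sham. Every PCA+NH3 array lay above every Sham array, which was so for 0.127% of all genes (0.198% were lower without overlap). The 3 highest values of all came from PCA+NH3 arrays 2 and 5 and PCA+NH3+LPS array 3, which also had the 3 highest choroid plexus means, 2.38, 3.06 and 2.90. The difference from Sham was not particular to PCA+NH3. On the log2 scale it was 0.41 (SE 0.18) in PCA+NH3+LPS, 0.38 (SE 0.17) in PCA+LPS and 0.18 (SE 0.17) in PCA. In PCA+NH3 the difference from Sham was 0.50 (SE 0.17, limma adjusted p = 0.701), and 0.26 (SE 0.16, limma adjusted p = 0.994) without the 4 arrays of high choroid plexus markers. The part of choroid plexus in this value was not tested.

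For the whole list, PCA+NH3 against Sham gave a median log2 difference of 0.06, with 22 positive and 11 negative. At an unadjusted p under 0.05, 1 marker (Lpl) was higher and 1 (Axl) lower, against 6.05% of all genes. The median turned to -0.03 without Sham array 2, to -0.01 without Sham array 4 and to -0.08 without the 4 arrays of high choroid plexus markers. Against PCA, no marker of PCA+NH3 passed the unadjusted threshold, against 4.98% of all genes, and the median was -0.08, with 5 positive and 24 negative. That median rested on PCA array 3, since it was 0.01 without it.

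The NH3 factor compared the 9 arrays with ammonium acetate infusions with the 10 PCA arrays without them, each side weighting its groups with and without LPS equally. Differences were negative for 30 of the 33 markers, with a median log2 difference of -0.157 against -0.005 over all genes, and 2 of them had an unadjusted p under 0.05, against 5.57% of all genes. None passed the adjusted threshold (smallest limma adjusted p = 0.859). All 10 homeostatic genes (median -0.05) and all 14 general myeloid genes (median -0.17) were negative, as were 6 of 9 activation genes (median -0.18). The 3 positive genes were Lpl at 0.175 (SE 0.12), Axl at 0.07 (SE 0.06) and Trem2 at 0.005 (SE 0.09). Border macrophage markers were negative in 7 of 7 (median -0.18) and choroid plexus markers positive in 12 of 12 (median 1.07), and their part in the result was not tested. The median of the microglia markers was -0.22 without the 4 arrays of high choroid plexus markers, -0.10 without PCA array 3, -0.103 without PCA+NH3+LPS array 1 and -0.09 without PCA+LPS arrays 2 and 5. Between 1 (without PCA array 3 or PCA+NH3+LPS array 1) and 6 (without PCA+LPS array 3) markers were lower at the unadjusted threshold on leaving out 1 array.

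Spi1 encodes PU.1, the transcription factor on which the myeloid lineage depends, and had the smallest p of the markers in the NH3 factor. The arrays gave log2 levels of 5.1, 5.4, 5.1 and 5.4 in PCA+NH3+LPS, 5.4, 5.8, 5.3, 5.7 and 6.0 in PCA+LPS, 5.4, 5.2, 5.4, 5.3 and 5.6 in PCA+NH3, 5.4, 5.3, 5.8, 5.4 and 5.3 in PCA, and 5.4, 5.2, 5.2, 5.6 and 5.3 in Sham. The highest values were in PCA+LPS arrays 2, 4 and 5 and PCA array 3, and the groups overlapped. The log2 difference was -0.225 (SE 0.09, limma adjusted p = 0.859), and -0.14 (SE 0.09) without PCA+LPS arrays 2 and 5.

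Ncf1 encodes the organizing subunit of the phagocyte NADPH oxidase. Its log2 level was 4.8, 4.9, 5.1 and 5.0 in PCA+NH3+LPS, 5.4, 5.2, 5.2, 5.2 and 5.4 in PCA+LPS, 5.1, 5.0, 5.1, 4.9 and 5.1 in PCA+NH3, 5.1, 5.1, 5.5, 4.9 and 5.1 in PCA, and 5.7, 5.0, 5.1, 5.1 and 4.8 in Sham. The highest values were in Sham array 1 and PCA array 3, and Sham spanned the whole range, so the other groups all overlapped it. Sham is not part of the NH3 factor. Among its groups, the lowest PCA+LPS value was 5.2 and the highest of both PCA+NH3+LPS and PCA+NH3 was 5.1, while PCA overlapped each of them. With values in steps of 0.1, that is the smallest gap possible. The share of all genes separated in this way was not counted. The log2 difference of the NH3 factor was -0.215 (SE 0.09, limma adjusted p = 0.864), and Tyrobp was at -0.30 (SE 0.16, limma adjusted p = 0.912). Tyrobp was at -0.20 without PCA+LPS arrays 2 and 5, and at -0.45 (SE 0.19, limma adjusted p = 0.999) without the 4 arrays of high choroid plexus markers, where its unadjusted p was under 0.05.

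The LPS factor compared the 9 arrays with LPS infusions with the 10 PCA arrays without them, weighting its groups with and without ammonium acetate equally. The median log2 difference of the markers was 0.048 against 0.003 over all genes, with 27 positive and 6 negative, and none had an unadjusted p under 0.05, against 3.09% of all genes. The smallest limma adjusted p was 0.997. Immune receptors and adaptors had the highest median by role among roles of 3 or more genes, 0.215 over 7 genes, and purine and lipid receptors the lowest, 0.017 over 4 genes. Choroid plexus markers were negative in 12 of 12 (median -0.391) and monocyte and neutrophil markers positive in 6 of 8 (median 0.176). Without PCA+LPS arrays 2 and 5 the median over the 33 microglia markers was 0.025, and without the 4 arrays of high choroid plexus markers it was 0.097. Leaving out 1 array gave medians between 0.02 (without PCA+LPS array 1) and 0.097 (without PCA array 3), and up to 2 markers (without PCA+NH3+LPS array 1) past the unadjusted threshold.

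Itgam encodes the alpha chain of the complement receptor of phagocytes and had the smallest p of the markers in the LPS factor. Log2 levels were 6.0, 5.9, 5.9 and 5.2 in PCA+NH3+LPS, 6.4, 6.1, 5.3, 5.7 and 6.2 in PCA+LPS, 5.8, 5.6, 5.3, 4.8 and 5.5 in PCA+NH3, 5.6, 5.8, 6.1, 5.6 and 5.4 in PCA, and 6.4, 5.7, 5.2, 5.3 and 5.6 in Sham. Each group with LPS had arrays both above 5.8 and at 5.3 or below, so the groups overlapped. The log2 difference was 0.295 (SE 0.17, limma adjusted p = 0.997). It was 0.445 (SE 0.20) without the 4 arrays of high choroid plexus markers. It was 0.345 (SE 0.15) without Sham array 1 and PCA array 3, and 0.296 (SE 0.13) with the sample number as a block. Each of these had an unadjusted p under 0.05 and a limma adjusted p of 0.997 or more. Without PCA+LPS arrays 2 and 5 the difference was smaller, 0.225 (SE 0.18), and not past that threshold. Leaving out 1 array gave 0.22 to 0.387.

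Cd68 encodes a membrane protein of macrophage lysosomes and came next. By array, the log2 level was 4.9, 5.8, 5.3 and 5.3 in PCA+NH3+LPS, 5.5, 5.5, 5.4, 5.4 and 5.7 in PCA+LPS, 5.4, 5.2, 5.0, 5.0 and 5.1 in PCA+NH3, 5.2, 5.4, 5.2, 5.3 and 5.6 in PCA, and 5.2, 4.8, 5.5, 5.1 and 5.2 in Sham. The 5 PCA+LPS arrays lay close together at the upper end, and those of PCA+NH3+LPS spread from 4.9 to 5.8. The log2 difference was 0.17 (SE 0.10, limma adjusted p = 0.997), and 0.093 without PCA+NH3+LPS array 2.

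The group with both infusions was compared with Sham and with PCA, and entered the interaction of LPS and ammonium acetate. It was not contrasted directly with PCA+LPS or with PCA+NH3. PCA+NH3+LPS against Sham gave a median log2 difference of 0.08, with 25 positive and 8 negative, and 1 marker (Lpl) higher at an unadjusted p under 0.05, against 4% of all genes. The median rested on single arrays: it was 0 without Sham array 4, with 15 positive and 15 negative, 0.025 without Sham array 2, 0.2 without Sham array 1, and between 0.033 (without array 3) and 0.133 (without array 1) on leaving out 1 array of PCA+NH3+LPS. Without the 4 arrays of high choroid plexus markers the count of higher markers was 0, and without Sham array 1 and PCA array 3 it was 5. No marker was separated without overlap there, against 0.138% of all genes higher and 0.254% lower. Against PCA the median was 0.14 for PCA+LPS (0.08 without PCA array 4 and 0.033 without PCA+LPS arrays 2 and 5), with 2 markers (Ptprc and Cybb) higher at an unadjusted p under 0.05, against 4.01% of all genes. That count was 0 without PCA+LPS arrays 2 and 5 and 8 without Sham array 1 and PCA array 3. For PCA+NH3+LPS against PCA it was -0.06, with no marker past that threshold, against 4.16%. Its sign rested on PCA array 3, without which it was 0.025, with 18 positive and 12 negative. These comparisons share their control arrays. The interaction, which tests whether the combination differs from the sum of both infusions, had a median of -0.055 over the markers, and none had an unadjusted p under 0.05, against 3.72% of all genes (smallest limma adjusted p = 0.997). Leaving out 1 array moved this median between -0.13 (without PCA array 3, with 5 positive, 28 negative and 1 marker lower at that threshold) and -0.02 (without PCA+NH3 array 1 or PCA+NH3+LPS array 1), and up to 2 markers (without PCA+LPS array 3) were then past the threshold. Its median was -0.23 over the activation genes and 0.06 over the homeostatic genes.

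Setting the activation genes against the homeostatic genes gave values that overlapped between all groups. The mean of the 9 activation genes minus that of the 10 homeostatic genes was -0.001 ± 0.14 in PCA+NH3+LPS (SD, n = 4), 0.14 ± 0.24 in PCA+LPS, 0.01 ± 0.09 in PCA+NH3, -0.08 ± 0.14 in PCA and -0.07 ± 0.21 in Sham (SD, n = 5 each). PCA+LPS minus Sham was 0.217, 0.061 without PCA+LPS arrays 2 and 5, and 0.142 without Sham array 1. PCA+LPS was split within itself, at -0.15, 0.33, 0.125, -0.01 and 0.43 in arrays 1 to 5. The highest values belonged to arrays 2 and 5, with the high monocyte and neutrophil markers. The lowest, -0.37 in Sham array 1 and -0.305 in PCA array 3, belonged to the arrays with the lowest granule cell markers, and their part was not tested. The activation mean alone was 0.20 ± 0.19 in PCA+LPS and -0.145 ± 0.25 in Sham (SD, n = 5 each), and the homeostatic mean was 0.06 ± 0.19 in PCA+LPS and -0.07 ± 0.33 in Sham.

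**Figure D4:**
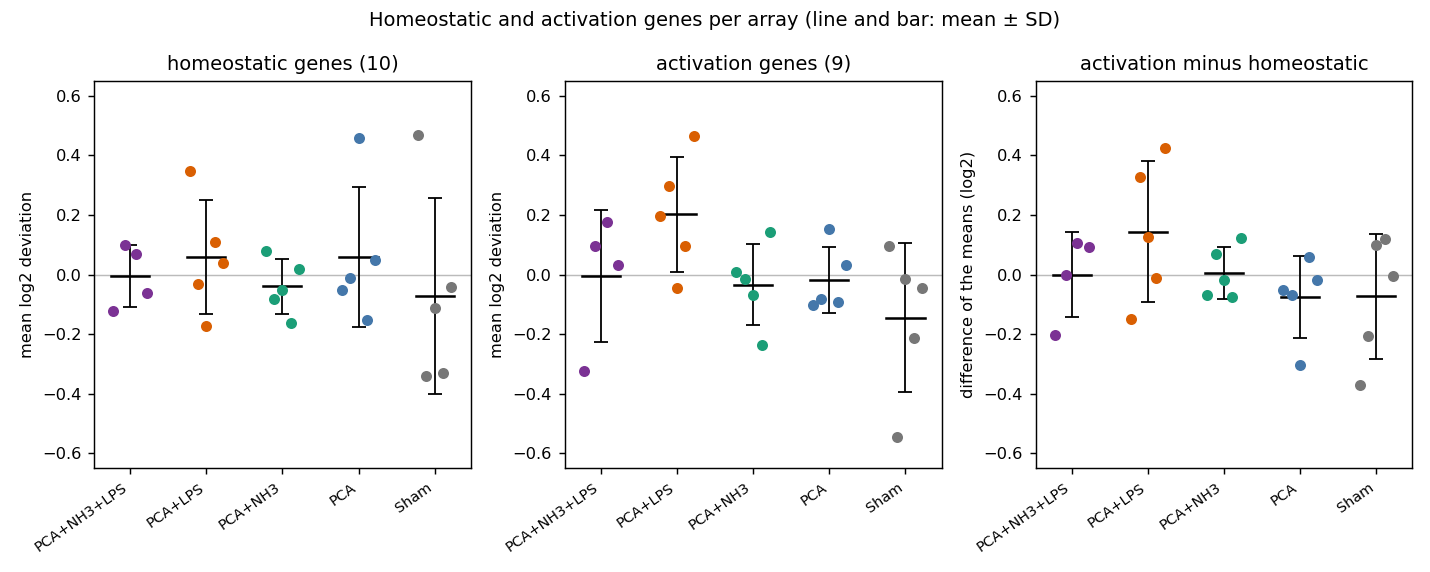
Mean log2 deviation per array of the 10 homeostatic genes (left) and the 9 activation genes (middle), and the activation mean minus the homeostatic mean (right), with group mean and SD (PCA+NH3+LPS n = 4, the others n = 5). The groups overlap in all panels; the highest homeostatic means are those of Sham array 1 and PCA array 3, 0.468 and 0.458, and the highest activation means those of PCA+LPS arrays 5 and 2, 0.464 and 0.297.

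**Figure D5:**
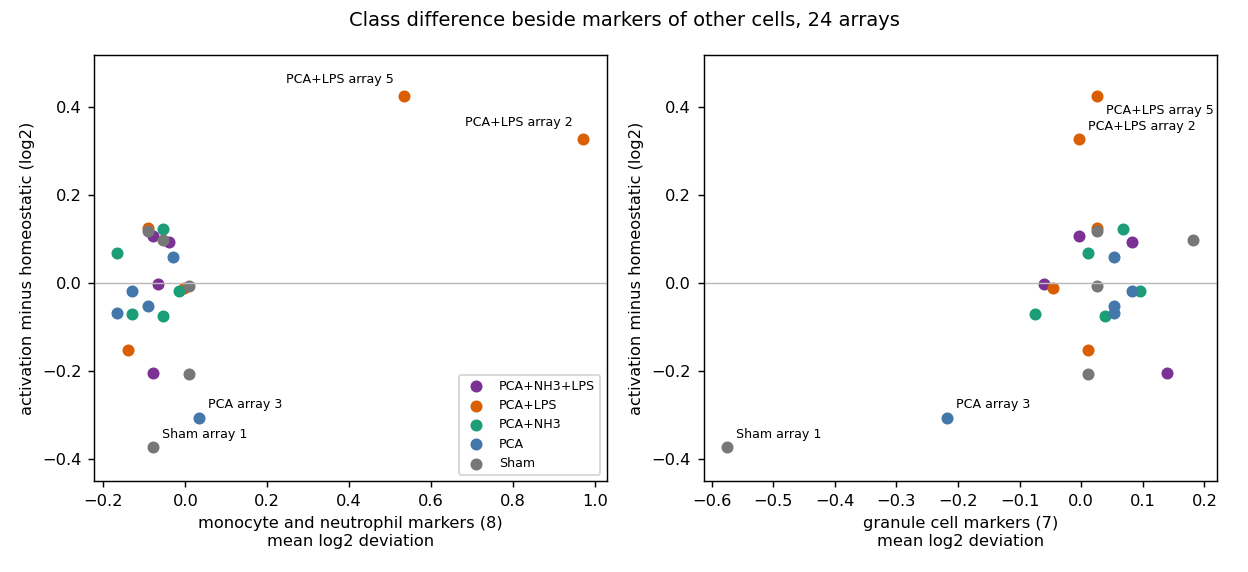
The activation mean minus the homeostatic mean of each of the 24 arrays (vertical, log2) against the mean of 8 monocyte and neutrophil markers (left) and of 7 granule cell markers (right), coloured by group. PCA+LPS arrays 2 and 5 stand alone at the right of the left panel, at 0.97 and 0.53, and Sham array 1 and PCA array 3 alone at the left of the right panel, at -0.575 and -0.218.

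Across all 5 groups, the F-test put 2 of the 33 markers, Axl and Ptprc, past the unadjusted threshold, against 4.77% of all genes. Lpl and Tyrobp came next, and the smallest limma adjusted p of a marker was 0.989 (Axl).

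The genes around the markers were examined as lists. The 8 ligands of marker receptors, which include Csf1 and Il34 for Csf1r, Cx3cl1 for Cx3cr1, Gas6 and Pros1 for Axl and Mertk, and Apoe for Trem2, held 0 called genes in every contrast. Their median log2 difference was 0.11 in PCA+LPS against Sham and 0.006 in the LPS factor. Of 17 measured genes known from disease-associated microglia in mice, such as Clec7a, Cst7 and Gpnmb, 0 were called, with a median of 0.10 in PCA+LPS against Sham. Of 24 other measured microglial genes, 1 was called, in PCA+LPS against Sham and in the LPS factor, and their medians were 0.19 and 0.13. In the NH3 factor, the smallest p of this list were those of Hpgds, a prostaglandin D synthase, at -0.32 (SE 0.09, limma adjusted p = 0.388), and the complement gene C1qc, at -0.395 (SE 0.14, limma adjusted p = 0.677). Hcls1, a leukocyte cytoskeletal gene, was at 0.29 (SE 0.09, limma adjusted p = 0.997) in the LPS factor. Cd14, a coreceptor for LPS, was at 0.28 (SE 0.09, limma adjusted p = 0.641) over all PCA groups against Sham. In the LPS factor Cd14 was at -0.03 (SE 0.08).

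The called gene was Adgre1, which encodes a macrophage surface receptor of the adhesion class and is not among the 35 markers. The arrays gave log2 levels of 6.2, 6.9, 6.8 and 6.8 in PCA+NH3+LPS, 7.0, 7.0, 6.3, 6.6 and 7.4 in PCA+LPS, 6.3, 5.8, 5.9, 5.6 and 6.0 in PCA+NH3, 5.9, 5.8, 6.4, 6.0 and 6.2 in PCA, and 5.9, 5.5, 6.0, 5.8 and 5.8 in Sham. It rose in the LPS factor by 0.78 (SE 0.13, limma adjusted p = 0.0237) and in PCA+LPS against Sham by 1.06 (SE 0.17, limma adjusted p = 0.0197), with all PCA+LPS arrays above all Sham arrays. The first call ended on leaving out any 1 of 11 arrays, namely PCA 1, 2 or 4, PCA+NH3 2, 3 or 4, PCA+LPS 1 or 2, and PCA+NH3+LPS 2, 3 or 4 (limma adjusted p up to 0.113), and the second without PCA+LPS array 1, 2 or 5 or Sham array 2 or 4 (up to 0.0926). Without PCA+LPS arrays 2 and 5 together the differences were 0.66 (limma adjusted p = 0.178) and 0.83 (limma adjusted p = 0.324).

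The probe set that carries both Fcgr2b and Fcgr2a, Fc receptors that bind antibody complexes, was followed apart from the 33 genes. Its log2 level was 5.88 ± 0.15 in PCA+NH3+LPS (SD, n = 4), 6.10 ± 0.42 in PCA+LPS, 5.44 ± 0.11 in PCA+NH3, 5.58 ± 0.11 in PCA and 5.50 ± 0.27 in Sham (SD, n = 5 each). PCA+LPS was split here too, at 6.3, 6.5, 5.6, 5.7 and 6.4 in arrays 1 to 5. The LPS factor was at 0.48 (SE 0.11, limma adjusted p = 0.36) and PCA+LPS against Sham at 0.60 (SE 0.15, limma adjusted p = 0.274), and which of the genes gave the signal cannot be told.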

How the data were processed

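RNA from rat cerebellum was measured on 24 Affymetrix arrays, 1 per sample, grouped by the labels. The authors deposited log2 values from RMA, per the submitters' processing notes, given in steps of 0.1 between 1.5 and 13.5; neither its version nor a genome build is stated in the labels. The rounding limits small differences. Of 29016 probe sets, 19338 carried 1 gene symbol, 1521 several and 8157 none; symbols were updated through RefSeq for 3388 and kept as found for 1824. For the 836 genes with several probe sets the brightest was used, which left 18137 genes. No further normalization was applied.

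One mean per group was fitted to all genes with limma 3.58.1 in R 4.3.3 (19 residual and 4.39 prior degrees of freedom), with two-sided tests and Benjamini-Hochberg adjustment over all genes at 0.05. The code was tested on simulated data. The microglia markers and all lists were chosen with earlier results of these data known. Values in every array are given for the 2 markers of smallest p in PCA against Sham, in the NH3 factor and in the LPS factor, and the 4 of smallest F-test p; of other lists, called genes and up to 3 of smallest p are named. Cybb and Cd53 were added after their values were seen. The correlation of deviations from group means had a median of 0.098 over 46 pairs of the same number (23 above 0.1) and -0.011 over 184 pairs of different numbers (44 above 0.1). The rule asked every same-number pair to be above 0.1, which cannot show that the numbers are unrelated. Same-number pairs had the higher median, and whether the numbers mark a batch was not tested. The labels tie no number to an animal or batch, and the numbers were used as a block only as an alternative.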

Additional observations from a re-analysis of the deposited data

Results flagged for a closer look

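Among 75 sets of values within 1 group, 5 held an array far from the others by Dixon's test at the 95% level, and chance alone gives about 1 in 20. Spi1 was at 5.8 (log2 level) in PCA array 3, while the other PCA arrays lay between 5.3 and 5.4. The mean of the 33 microglia markers in the same array was 0.346, against -0.111 to -0.002 in the other PCA arrays. Itgam was at 5.2 in PCA+NH3+LPS array 4, against 5.9 to 6.0 in the rest of that group. Cd53 was at 6.8 in PCA+NH3 array 4, where all others of that group were at 7.2. Ptprc was at 4.4 in Sham array 2, against 4.9 to 5.1 in the other Sham arrays.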

How the results depend on the processing

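No microglia marker was called at an adjusted p under 0.05 with limma in any setting run. In PCA+LPS against Sham the median log2 difference over the markers was above the SD of their array means pooled over the groups (0.195). It was below the SD of Sham alone (0.272), and it was 0.145 to 0.33 on leaving out 1 array. In the other contrasts the median was smaller in size than the pooled SD. These sizes were set side by side without a test. The sign of the median changed for PCA+NH3 against Sham (0.06, and -0.08 without the choroid plexus arrays), PCA+NH3 against PCA (-0.08, and 0.01 without PCA array 3) and PCA+NH3+LPS against PCA (-0.06, and 0.025 without PCA array 3). The counts of all genes called moved more. With the sample number as a replicate block they were 1 in PCA+LPS against PCA, 1 in the NH3 factor and 1 in the F-test, and no call of a marker changed. With cyclic loess, all PCA groups against Sham gave 0. With trend and robust fitting, PCA+NH3 against PCA gave 1 and the F-test 5, and with genes of mean 5 or more they gave 1 and 6. With array weights, all PCA groups against Sham gave 0, PCA+NH3 against PCA 3, PCA+LPS against PCA 2, PCA+NH3+LPS against PCA 4 and the F-test 7. With only the groups compared, PCA+LPS against Sham gave 0 and the LPS factor 1. Without the 4 arrays of high choroid plexus markers, PCA+LPS against Sham gave 3, all PCA groups against Sham 0, the LPS factor 1, the NH3 factor 0 and the F-test 1. Without PCA+LPS arrays 2 and 5, chosen after the data were seen, these were 2, 0, 1, 0 and 0. Ptprc in PCA+LPS against PCA reversed there to -0.02. Without Sham array 1 and PCA array 3, also chosen after, PCA+NH3+LPS against Sham gave 1, all PCA groups against Sham 0 and PCA+LPS against PCA 2. Leaving out each array in turn gave 0 to 10 calls in PCA+LPS against Sham, 1 to 4 in both the LPS factor and the NH3 factor, 0 to 2 in PCA+LPS against PCA and in PCA+NH3 against PCA, 0 to 1 in PCA+NH3+LPS against PCA and in all PCA groups against Sham, and 0 to 4 in the F-test. The call of Adgre1 ended with only the groups compared, at an adjusted p of 0.0623 in the LPS factor and 0.264 in PCA+LPS against Sham, and in the LPS factor without the choroid plexus arrays, at 0.259; the cause was not tested. Small group sizes, values rounded to 0.1 and dim probe sets limit what could be detected.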
